A study of Arabidopsis thaliana with 34 samples.

Results

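The 54 genes described here encode protein subunits of the large (60S) subunit of the cytosolic ribosome in Arabidopsis thaliana. They were taken as the rows of the expression tables that carry 1 of 54 listed locus names, a rule that uses no measured value, and they are 54 of the 27538 genes in those tables. They fall into 20 families, L3, L4, L5, L6, L7, L7a, L8, L9, L10, L10a, L11, L12, L13, L13a, L14, L15, L18, L23a, L24 and P0, each with 2 to 4 gene copies listed here, so that the copies of 1 family can be set against each other across lines, times of day and organs.

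The 60S subunit joins amino acids into protein at its peptidyl transferase centre and passes the new chain out through an exit tunnel. Its proteins sit on ribosomal RNA at set places: L3 reaches the peptidyl transferase centre, L4 lines the tunnel, L5 and L11 hold the 5S RNA, and P0 carries the stalk of P1 and P2 proteins that calls translation factors to the ribosome. In plants nearly every ribosomal protein is encoded by several copies, left by whole-genome and tandem duplications, and the mRNAs of the cytosolic ribosomal proteins are most abundant in growing tissue, where many ribosomes are made.

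The samples were 34 RNA-seq libraries of wild-type Col-0 and of lines from which a CRISPR nuclease had removed a large syntenic region. Such a region is a block in which some, but not all, genes have copies in the same order elsewhere in the genome. In the time-of-day experiment, plate-grown seedlings about 2 weeks old were pooled and harvested either in the evening (time point t1) or in the morning (time point t2). Col-0 had 4 samples at t1 and 3 at t2, the line T4 pAP141 25.12.63 had 4 and 2, and the line T4 pAP142 22.4.15 had 3 and 3. In the pAP146 experiment, leaves of single plants were taken from Col-0 (4 samples), from siblings without the deletion (4) and from plants heterozygous for the deletion (3) of the line T3 pAP146 17.11. Plants homozygous for that deletion were delayed in development and were collected as whole seedlings (4 samples), so that genotype and tissue cannot be told apart in any comparison with them. Each deletion is represented by 1 line, and the study's authors describe genome-wide differences between pAP142 plants and Col-0 beyond the deleted stretch. Whether the pools came from separate plates or cultures is not given, so p-values measure the spread between these samples.

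Estimated counts summed to between 26640541 and 43851997 per sample. Lines matched their labels in the deleted genes: RPS24 (AT5G28060), which encodes a 40S protein and is deleted in pAP142, had a mean of 681 TPM in Col-0 t1 and at most 3 counts in any pAP142 sample, TET3 (deleted in pAP141) was at 0 in pAP141, and JAZ11 (deleted in pAP146) was at 0 in homozygous plants. TPM is a level corrected for transcript length and scaled to the same total in every sample. Samples also differed in tissue makeup. The summed level of 14 root genes was 95.96 to 137.66 TPM in Col-0 t1, 46.77 to 80.57 in pAP142 t1, 1.72 to 2.74 in Col-0 leaves, 2.37 to 2.61 in siblings and 14.06 to 173.21 in homozygous seedlings. COBL9, EXPA7, PIN2 and 8 other root genes stayed below 0.1 TPM in every Col-0 leaf and sibling sample. In bulk samples, fewer cells of a type and less RNA per cell cannot be told apart.

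The copies of a family are close in sequence. Among 51 pairs of copies, the predicted proteins were identical at 41.9% to 100% of aligned positions, with a median of 92.2%, and 36 pairs reached 90%. RPL9B and RPL9C encode the same protein, as do RPL11B, RPL11C and RPL11D. The pairs below 70% were the 3 between RPL7A and the other L7 copies. RPP0A, with 317 residues, was 82.2% identical to RPP0B, whereas RPP0B and RPP0C were 96.0% identical. At the level of bases, copies could still be told apart: a median of 1.35% of the 31-base words in a coding sequence occurred in another copy of the family, and 46 of the 54 coding sequences shared less than 10%. RPL9B and RPL9C shared the most, 82.7% and 85.2% of their words, so that the split of reads between this pair is uncertain.

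The site II element (TGGGCC or TGGGCT) and the telo box (AAACCCTAA) are promoter motifs known from plant ribosomal protein genes. Site II was found on either strand within 250 bases before the annotated start in 40 of the 54 genes (74.1%), against 5306 of 27355 genes in all (19.4%), in 54 of 77 other 60S protein genes (70.1%) and in 54 of 83 40S protein genes (65.1%). Overlapping matches, as in a palindromic TGGGCCCA, count separately. The median match began 62 bases before the start. The telo box was found in 6 of the 54 (11.1%) against 2.73% of all genes. The promoters of 3 pairs of copies are shown because copies of P0, L3 and L10 carry the widest gaps within a family in the pAP142, time-of-day and organ comparisons described further on. Each reads 5' to 3' on the strand of its gene and ends at the base before the start in the RefSeq annotation of TAIR10.1, with site II matches in capitals. RPP0A lies at chr2:16710773-16711022 (minus strand), RPP0B at chr3:2825242-2825491 (minus), RPL3A at chr1:16266303-16266552 (plus), RPL3B at chr1:22723153-22723402 (minus), RPL10A at chr1:4887864-4888113 (plus) and RPL10C at chr1:24838840-24839089 (plus).
RPP0A: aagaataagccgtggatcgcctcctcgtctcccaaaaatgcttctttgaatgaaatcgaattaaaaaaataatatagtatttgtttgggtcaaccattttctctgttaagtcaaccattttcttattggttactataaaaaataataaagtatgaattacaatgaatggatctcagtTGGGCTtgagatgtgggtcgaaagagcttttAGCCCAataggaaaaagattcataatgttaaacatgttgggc
RPP0B: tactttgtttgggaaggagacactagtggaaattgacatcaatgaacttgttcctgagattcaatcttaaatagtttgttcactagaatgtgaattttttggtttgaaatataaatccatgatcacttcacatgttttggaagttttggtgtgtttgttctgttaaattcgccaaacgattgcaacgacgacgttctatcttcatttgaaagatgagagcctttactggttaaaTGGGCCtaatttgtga
RPL3A: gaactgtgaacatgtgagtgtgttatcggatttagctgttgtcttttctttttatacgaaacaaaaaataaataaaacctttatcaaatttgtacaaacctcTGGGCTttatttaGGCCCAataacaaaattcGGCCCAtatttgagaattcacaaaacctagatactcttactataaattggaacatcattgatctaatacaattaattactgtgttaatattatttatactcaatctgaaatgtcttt
RPL3B: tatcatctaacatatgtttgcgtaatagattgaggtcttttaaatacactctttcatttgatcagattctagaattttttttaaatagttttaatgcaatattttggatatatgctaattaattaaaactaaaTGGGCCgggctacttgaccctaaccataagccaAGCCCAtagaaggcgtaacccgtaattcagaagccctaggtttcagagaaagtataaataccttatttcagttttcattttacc
RPL10A: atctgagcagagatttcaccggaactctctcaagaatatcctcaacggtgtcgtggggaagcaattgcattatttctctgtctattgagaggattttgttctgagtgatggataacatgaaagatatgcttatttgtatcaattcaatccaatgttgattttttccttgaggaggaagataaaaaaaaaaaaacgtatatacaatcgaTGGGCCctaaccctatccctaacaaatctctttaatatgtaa
RPL10C: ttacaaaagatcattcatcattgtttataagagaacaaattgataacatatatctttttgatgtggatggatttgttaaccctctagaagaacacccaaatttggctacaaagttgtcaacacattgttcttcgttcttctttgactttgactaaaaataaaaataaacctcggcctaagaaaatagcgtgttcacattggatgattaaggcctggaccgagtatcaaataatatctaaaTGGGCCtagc
All 6 hold site II and none holds the telo box. RPL3A has 3 matches, RPP0A and RPL3B have 2 each, and RPP0B, RPL10A and RPL10C have 1 each.

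Of the 54 genes, 42 had a mean of at least 100 TPM over the 34 samples and the median gene had 316 TPM. RPL14B (AT4G27090) was highest at 1129 TPM, followed by RPL23aA (622) and RPL18C (619). RPL8B and RPL13C were close to 0, with means of 0.0072 and 0.0050 TPM, and did not pass the filter on low counts, so that 52 genes were tested. The other 10 genes below 100 TPM ranged from RPP0A at 14.03 to RPL13aD at 93.5 TPM. Summed over its copies, a family reached between 385 TPM (L3) and 1379 TPM (L14), with a median of 833, so that families lay closer together than single copies.

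Families differed in how evenly their copies were expressed. The leading copy, taken as the copy with the highest mean level, held between 48.0% and 95.1% of its family's TPM (median 54.3%), and more than 50% in 16 of the 20 families. L3 and P0 were the most uneven: RPL3A held 95.1% and RPP0B 91.8%, while RPL3B held 4.93% and RPP0A 2.67%. RPL14B held 81.8% of L14 and RPL8A 77.3% of L8. In L15 the copies were almost equal, with 450 TPM for RPL15A and 445 TPM for RPL15B.

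**Figure D1:**
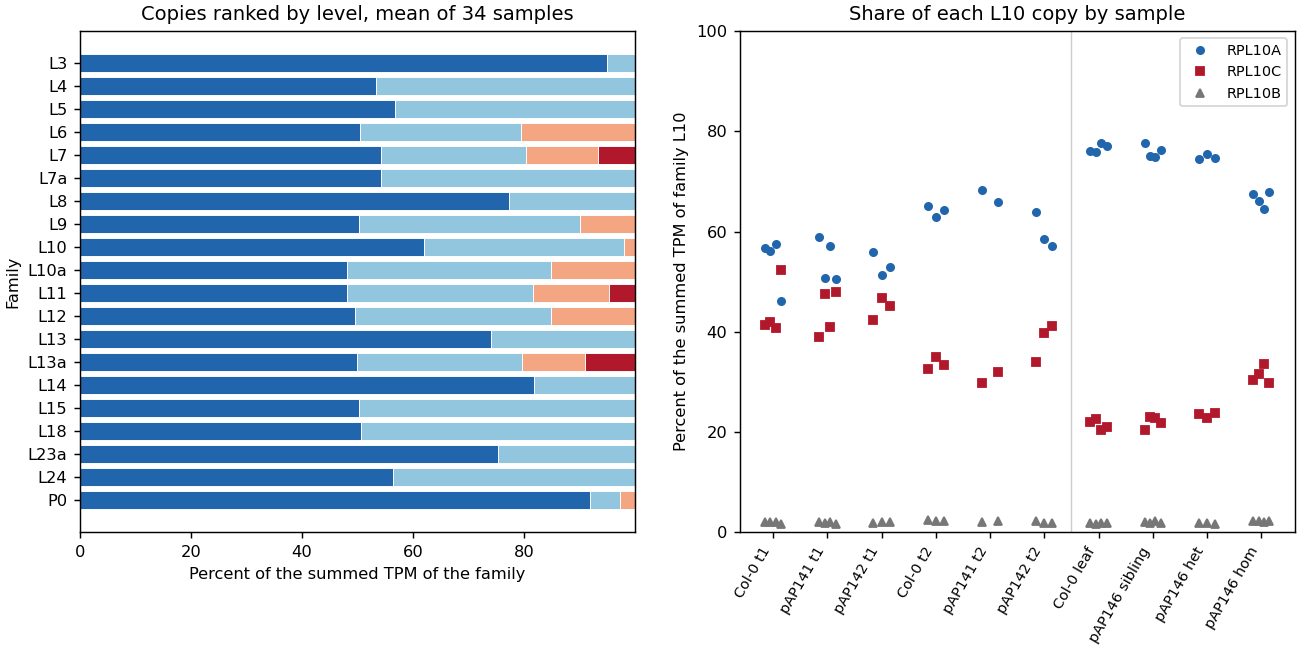
Left, percent of each family's summed TPM held by each copy, from means of 34 samples, with copies ordered by level from the left (dark blue, light blue, orange, red). Right, percent of the summed TPM of L10 held by RPL10A, RPL10B and RPL10C in each sample of 10 groups. RPL3A (95.1%) and RPP0B (91.8%) nearly fill their families, and the share of RPL10A is lowest in seedlings at t1 and highest in leaves.

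The 54 genes together made up 1.81% of all TPM in Col-0 t1. Their sum was 18128 ± 940 TPM (SD, n = 4) in Col-0 t1, 18893 ± 991 (n = 3) in Col-0 t2, 18809 ± 797 (n = 4) in pAP141 t1 and 16344 ± 961 (n = 2) in pAP141 t2. It was 20245, 21295 and 24056 TPM in the 3 samples of pAP142 t1, each above the highest Col-0 t1 sample (19464), and 19020 ± 1052 (n = 3) in pAP142 t2. Leaves were lower, at 11123 ± 2497 (n = 4) in Col-0, 12674 ± 981 (n = 4) in siblings and 12121 ± 738 (n = 3) in heterozygous plants, and homozygous seedlings had 15891 ± 1084 (n = 4). The Col-0 leaf samples were themselves uneven, with 12100, 8864, 9333 and 14196 TPM, a wider spread than in any other group.

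**Figure D2:**
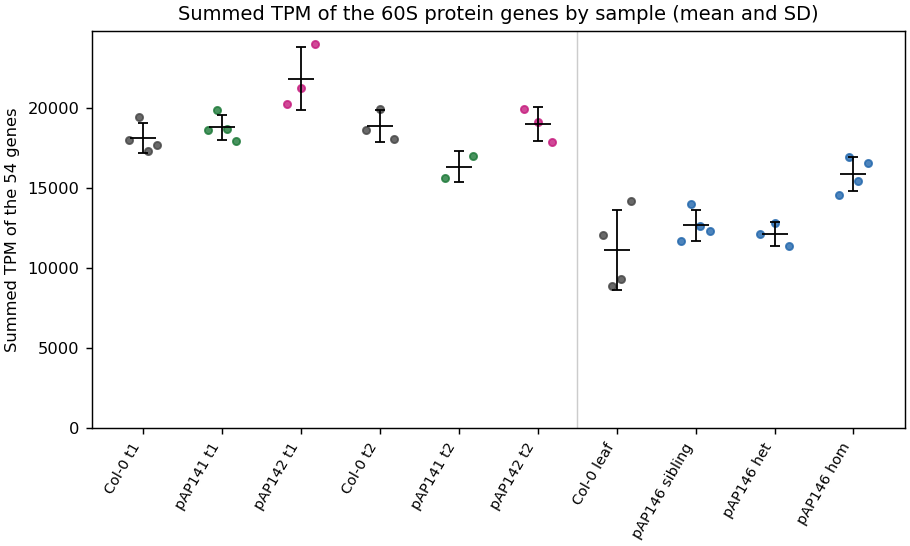
Summed TPM of the 54 genes in each sample (points), with the group mean and SD (black), for the time-of-day experiment left of the line and the pAP146 experiment right of it. The pAP142 t1 samples lie at 20245 to 24056 TPM, above all Col-0 t1 samples, and the Col-0 leaf samples spread from 8864 to 14196 TPM.

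The evening comparison of pAP142 with Col-0 asks how 60S genes stand in a line that lacks a block of genes, among them 1 of its S24 copies. The part of any single deleted gene in the result was not tested. At t1, 30 of the 52 genes were called higher in pAP142 and 0 lower, at an adjusted p under 0.05 in edgeR's quasi-likelihood test (adjusted over all 21356 genes tested), where 9.39% of all genes were called higher and 8.94% lower. The median log2 fold change was 0.33 against -0.03 over all genes, and all 52 values were above 0. Values ran from 0.08 for RPL13aC, which was not called, to 0.56 for RPL4A, with RPP0A apart at 1.49, and the smallest value among the called genes was 0.31 (RPL13aB). Of the leading copies 8 of 20 were called (median 0.28), and of the other copies 22 of 32 (median 0.35). Among the 72 other 60S protein genes tested, 22 were higher (median 0.29), and among 81 40S protein genes 33 were higher (median 0.30), including the S24 copy that pAP142 retains (AT3G04920), at 595 against 484 TPM.

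The count rested in part on single libraries. Without replicate 3 of pAP142 t1, the sample with the highest sum, 5 members were called higher (median 0.27). Calls over all genes fell too, to 1270 of 21306 higher. Without replicate 3 of Col-0 t1, 18 members were called higher, where 1459 of 21343 genes were. Of the 14 root genes 6 were lower in pAP142 t1 and 0 higher, and their part in the result was not tested.

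RPP0A (AT2G40010), the least expressed copy of the stalk protein P0, rose most. It had 26.8, 27.9 and 36.1 TPM in pAP142 t1 and 11.001, 12.8, 9.81 and 10.7 TPM in Col-0 t1, which is 1.49 higher on the log2 scale (SE 0.114, adjusted p = 3.38e-07 in edgeR). Every pAP142 sample was more than double every Col-0 sample, and the call held without any 1 library (1.37 to 1.57). The main P0 copy, RPP0B (AT3G09200), went from 491 ± 27.7 TPM (SD, n = 4) to 608 ± 84.3 (n = 3), a log2 fold change of 0.34 (adjusted p = 0.0202 in edgeR), and RPP0C had 0.23 (adjusted p = 0.0732). RPP0A thus held 4.47% of the P0 mRNA in pAP142 t1 and 2.06% in Col-0 t1.

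RPL4A (AT3G09630), a copy of the tunnel protein L4, had 256, 287 and 344 TPM in pAP142 t1 and 200.4, 231, 188 and 203 TPM in Col-0 t1, without overlap. It was 0.56 higher on the log2 scale (SE 0.0935, adjusted p = 0.000644 in edgeR). The other copy, RPL4D (AT5G02870), rose by 0.34 (SE 0.0940, adjusted p = 0.0179), a call that was lost without replicate 3 of pAP142 t1 and on the TPM scale. RPL4D, the leading copy, accordingly held 51.5 ± 1.73% of L4 in pAP142 t1 against 55.4 ± 1.23% in Col-0 t1, the largest shift of a leading copy in this comparison (exact permutation test, 2-sided, p = 0.0571, unadjusted over 20 families, and the smallest p that 3 against 4 samples can give).

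RPL9D (AT4G10450), the divergent copy of L9, which lies near the base of the stalk, had 137, 137 and 163 TPM in pAP142 t1 and 98.6, 117, 101 and 107 TPM in Col-0 t1, again without overlap. It rose by 0.49 on the log2 scale (SE 0.123, adjusted p = 0.00987 in edgeR). RPL10B (AT1G26910), the rarest copy of L10, had 23.4, 29.5 and 34.2 TPM against 21.8, 22.7, 19.4 and 21.8 TPM, and its lowest pAP142 sample was only just above the highest Col-0 sample. It rose by 0.46 (SE 0.111, adjusted p = 0.00808). Both calls were lost without replicate 3 of pAP142 t1.

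**Figure D3:**
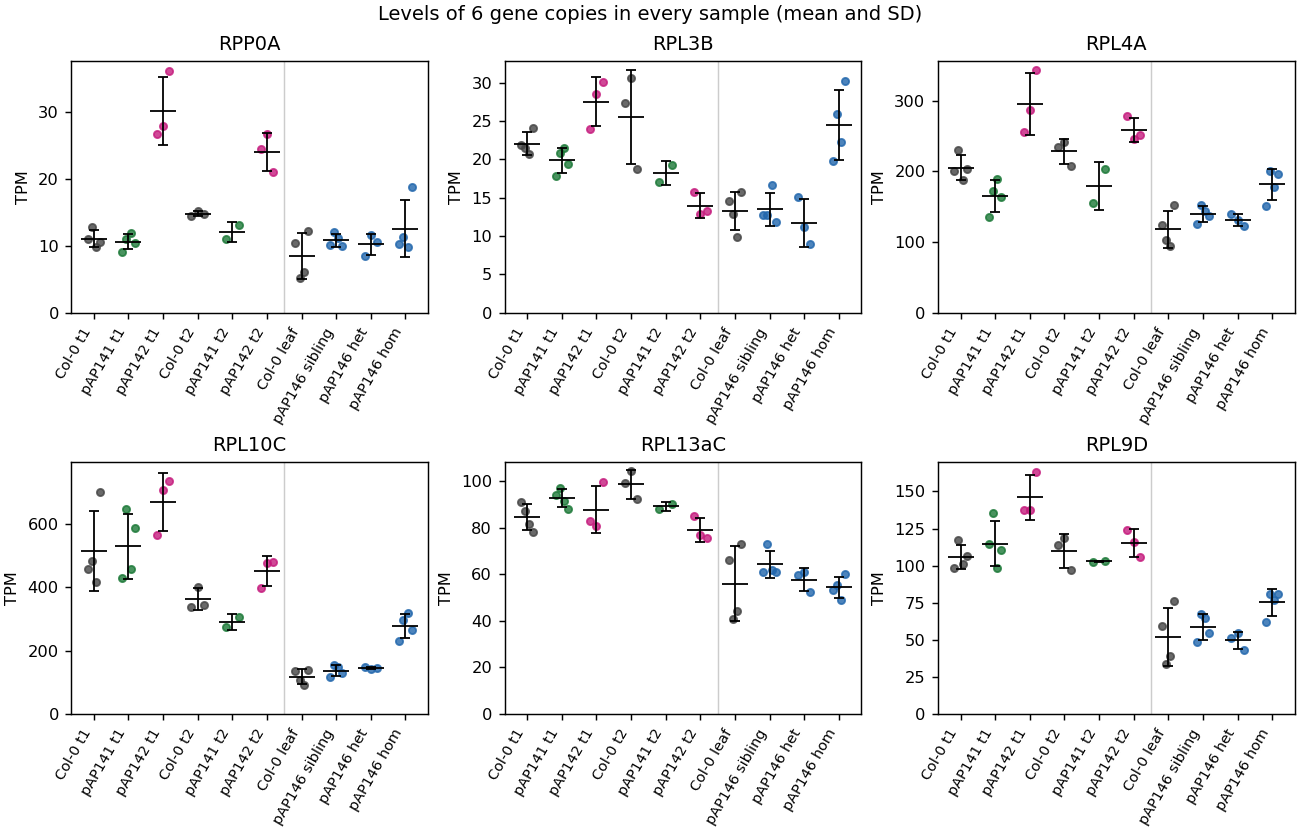
TPM of 6 gene copies in every sample (points) with group mean and SD (black), time-of-day experiment left of the line, pAP146 experiment right of it. RPP0A lies at 26.8 to 36.1 TPM in pAP142 t1 and at 9.81 to 12.8 in Col-0 t1, RPL3B falls to 12.8 to 15.8 in pAP142 t2, and RPL10C is below 160 TPM in every Col-0 leaf, sibling and heterozygous sample.

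In the morning the same line differed from Col-0 in 2 copies. RPP0A was 1 gene called higher and RPL3B 1 gene called lower among 52, where 5.07% of all genes were called higher and 2.67% lower, and the median log2 fold change was 0.04 (-0.02 without replicate 1 of Col-0 t2). RPP0A had 24.5, 26.8 and 21.03 TPM in pAP142 t2 and 14.6, 15.2 and 14.8 in Col-0 t2, without overlap, with 0.72 on the log2 scale (SE 0.123, adjusted p = 0.00193 in edgeR). RPL3B (AT1G61580), the minor copy of L3, had 15.8, 12.8 and 13.3 TPM in pAP142 t2 and 27.3, 30.6 and 18.8 in Col-0 t2. All pAP142 samples were below all Col-0 samples, with -0.83 on the log2 scale (SE 0.117, adjusted p = 0.000452). The leading copy RPL3A (AT1G43170) had 466 ± 58.7 TPM (SD, n = 3) in pAP142 t2 and 483 ± 40.9 (n = 3) in Col-0 t2.

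RPL3B was also the copy that separated the time points in pAP142. It had 23.9, 28.5 and 30.1 TPM in pAP142 t1, above the t2 values, a change of -0.80 on the log2 scale from t1 to t2 (adjusted p = 4.48e-05 in edgeR). It was 1 of 2 genes called lower at t2 in pAP142 (13.9% of all genes were, and 13.1% were called higher), the other being RPL9B at -0.32 (adjusted p = 0.0254), and the median of the 52 was -0.01. Over the same interval in Col-0, RPL3B rose by 0.39 (adjusted p = 0.00995 in edgeR), and RPL3A had 0.36. The share of RPL3B in L3 overlapped between Col-0 t1 (4.91%) and Col-0 t2 (4.98%). The difference between the RPL3B changes in pAP142 and in Col-0, tested in edgeR as the interaction of line and time point, was 1.19 (SE 0.159, adjusted p = 0.00793). RPL3B was the only member called among the 52 (0.211% of all genes had an interaction call). All 52 interaction values were above 0, with a median of 0.28 against -0.01 over all genes. RPP0A had 0.76 (adjusted p = 0.0778). On the TPM scale 20 members were called lower at t2 in pAP142. With log2(TPM + 1), 4764 of 18267 genes were called lower and 1620 higher. All genes shifted by -0.16, so that members stood -0.01 from the median gene with TMM scaling and -0.03 with TPM. The count at t2 in pAP142 was 1 without replicate 1 or 3 of pAP142 t1 or replicate 3 of pAP142 t2, and 2 members had an interaction call without replicate 2 of pAP142 t2.

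In pAP141, which lacks a different block of genes and keeps both S24 copies, no member was called at t1. In edgeR 0 of 52 genes passed (0.0749% of all genes were called in either direction), although 37 had an unadjusted p under 0.05. How many of all genes had an unadjusted p under 0.05 was not counted, here or in later comparisons. DESeq2 called 19 of 54 members higher, where it called 386 of 25232 genes higher and 708 lower. The median log2 fold change was 0.23 against -0.01 over all genes, with 51 of 52 values above 0 and RPL4A below at -0.14. Without replicate 3 of pAP141 t1, 13 members were called higher, and calls over all genes rose to 607 of 21327 higher and 1811 lower. On the TPM scale, where all genes shifted by -0.14, the median of the members was 0.05. At t2, edgeR called 0 of 52 (0.0983% of all genes were called), 0 had an unadjusted p under 0.05, DESeq2 called 0, and the median was 0.03. The direction at t2 depended on the scale and on single libraries. On the TPM scale, where the median over all genes was -0.18, the members had a median of -0.22 with 0 of 52 values above 0, 31 had an unadjusted p under 0.05 and 0 were called. Leaving out a pAP141 t2 sample leaves 1 that is taken to vary like the other groups: the median was then -0.13 with 0 calls without replicate 1, and 0.18 with 1 call without replicate 2. Without replicate 1 of Col-0 t2 it was -0.03. RPP0A had 9.16, 11.1, 11.96 and 10.5 TPM in pAP141 t1, overlapping with Col-0 t1 (log2 fold change 0.13, adjusted p = 0.505).

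The lines were also compared directly. Against pAP141 t1, 4 of 52 genes were called higher in pAP142 t1 and 0 lower, where 14.1% of all genes were called higher and 14.3% lower, with a median of 0.08. They were RPP0A (1.36), RPL4A (0.70), RPL3B (0.32) and RPL4D (0.31). RPL4A had 136, 172, 189 and 164 TPM in pAP141 t1, all below its pAP142 t1 samples. On the TPM scale, where all genes shifted by 0.12, 27 members were called higher. With log2(TPM + 1), 2842 of 18267 genes were called higher and 1452 lower. The count was 2 without replicate 1 or 4 of pAP141 t1 or without replicate 3 of pAP142 t1. Over all genes 2112, 2605 and 1983 were then called higher. The count was 7 without replicate 2 of pAP141 t1, where 2325 of 21330 genes were called higher. The comparisons of pAP142 t1 and pAP141 t1 with Col-0 t1 share the Col-0 samples, as does the next one.

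**Figure D4:**
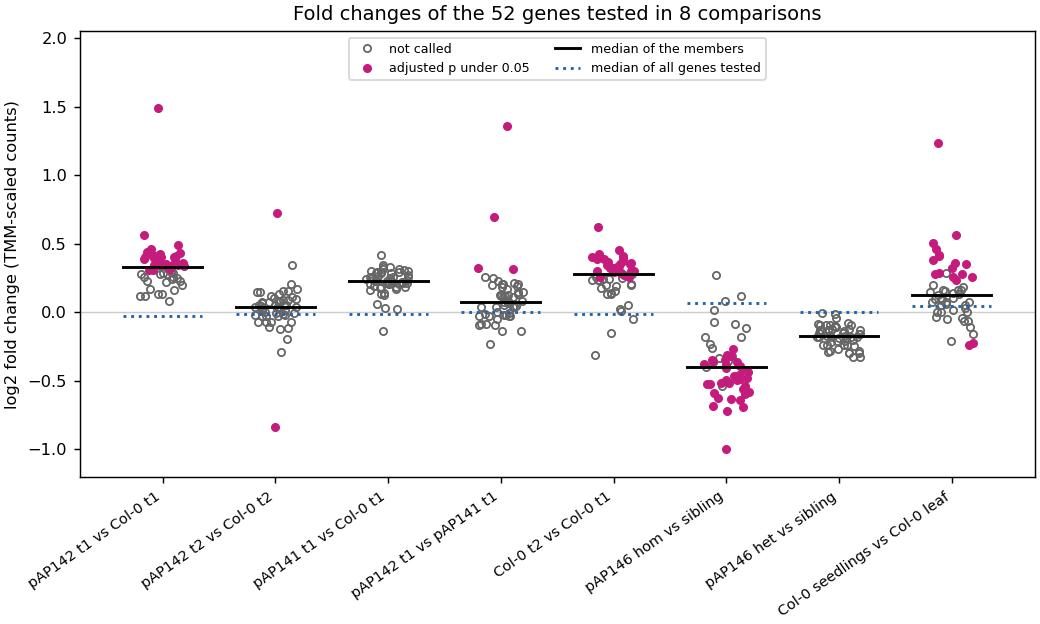
Log2 fold changes (TMM-scaled counts) of the 52 genes tested in 8 comparisons, filled where the adjusted p was under 0.05, with the median of the 52 (black) and of all genes tested (blue dots). The median is 0.33 in pAP142 t1 and 0.23 in pAP141 t1 against Col-0 t1, and -0.40 in homozygous pAP146 against siblings, where it is 0.35 on the TPM scale.

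In Col-0, 27 of 52 60S genes were called higher in the morning (t2) than in the evening (t1) and 0 lower (14% of all genes were called higher and 16.6% lower), with a median log2 fold change of 0.28 against -0.01 over all genes. Among other 60S genes 22 of 72 and among 40S genes 30 of 81 were higher, and 8 of 9 leaf photosynthesis genes were higher too, whose part in the result was not tested. The TPM scale shifted all genes by -0.17, and 7 members were then called higher and 3 lower. With log2(TPM + 1), 1592 of 18267 genes were called higher and 5712 lower. Relative to the median gene the members stood at 0.29 with TMM and 0.27 with TPM. Without replicate 2 of Col-0 t2, 14 members were called higher, where 2488 of 21328 genes were higher and 2755 lower. Without replicate 3 of Col-0 t2, 12 members were called higher, where 2360 of 21345 genes were higher and 2984 lower.

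The largest rise was again in RPP0A, with 14.6, 15.2 and 14.8 TPM at t2 and 9.81 to 12.8 TPM in the 4 samples at t1, with 0.62 on the log2 scale (SE 0.115, adjusted p = 0.00043 in edgeR). RPL24A (AT2G36620), a copy of L24, which in Arabidopsis is known for its part in reinitiation of translation, had 436, 480 and 434 TPM at t2 and 372, 407, 355 and 361 TPM at t1, without overlap (0.46, SE 0.106, adjusted p = 0.00287). RPL23aB (AT3G55280), a copy of a protein at the tunnel exit, had 264, 263 and 241 TPM against 218, 232, 204 and 214 TPM (0.42, SE 0.0968, adjusted p = 0.00245). RPL6A (AT1G18540), the leading copy of L6, had 497, 531 and 480 TPM against 430, 468, 412 and 417 TPM (0.41, SE 0.0986, adjusted p = 0.00371). In all 4 the t2 samples lay above the t1 samples.

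In L10, whose protein sits at the core of the subunit and is a late addition to it, the copies did not move together. RPL10A (AT1G14320) rose by 0.34 on the log2 scale (SE 0.105, adjusted p = 0.0180 in edgeR), a call that was lost on the TPM scale and without replicate 2 or 3 of Col-0 t2. RPL10C (AT1G66580) had 339, 402 and 346 TPM at t2 and 457, 485, 416 and 702 TPM at t1, a log2 fold change of -0.31 that was not called (adjusted p = 0.194). All t2 samples of RPL10C were below all t1 samples, and replicate 4 at t1 was far above the other 3. The share of RPL10A in L10 was 65.2%, 62.8% and 64.4% at t2 and 56.7%, 56.1%, 57.4% and 46.1% at t1, the largest shift among leading copies (64.1 ± 1.18% against 54.1 ± 5.37%, exact permutation test, 2-sided, p = 0.0571, the smallest that 3 against 4 samples allow). The share of RPL10A was 59.8 ± 3.61% (n = 3) in pAP142 t2 and 53.4 ± 2.34% (n = 3) in pAP142 t1. The genes with the lowest values besides RPL10C were RPL9B (-0.15, adjusted p = 0.271) and RPL9C (-0.05, adjusted p = 0.726).

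Between homozygous pAP146 seedlings and sibling leaves, the direction of 60S genes depended on the scale. With TMM-scaled counts in edgeR, 35 of 52 genes were called lower and 0 higher (27.8% of all genes were called lower and 33% higher). The median log2 fold change was -0.40. By contrast, limma on TPM called 26 higher and 0 lower, with a median of 0.35. With log2(TPM + 1) it called 12069 of 17561 genes higher and 1996 lower. All genes had a median of 0.07 with TMM and 0.62 with TPM, a shift of 0.56. Relative to the median gene, the members stood at -0.47 with TMM and -0.28 with TPM, below it on both scales. Other 60S genes (47 of 71 lower) and 40S genes (54 of 81 lower) had medians of -0.44 and -0.39 with TMM. Tissue changed with genotype: all 13 root genes tested were higher, all 9 leaf photosynthesis genes lower and 6 of 9 dividing cell genes higher, and their part in the result cannot be told apart from the deletion.

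RPL13aC (AT4G13170), 1 of 4 copies of L13a, was lowest relative to siblings on both scales. It had 53.1, 55.5, 49.0 and 59.9 TPM in homozygous seedlings and 61.1, 73.1, 61.9 and 60.7 TPM in siblings, without overlap, with a log2 fold change of -0.99 with TMM (SE 0.156, adjusted p = 8.77e-05 in edgeR) and -0.23 on the TPM scale, where it was not called. Its share of L13a, which needs no scaling between samples, was 5.97% to 7.22% in homozygous seedlings and 9.86% to 10.5% in siblings, a difference that was not tested. RPL24A, RPL9B (AT1G33120) and RPL5A (AT3G25520), a 5S RNA binding protein also known as PIGGYBACK3 for its leaf shape mutant, followed at -0.72, -0.69 and -0.69 with TMM, but at 0.03, 0.06 and 0.06 with TPM. Their TPM overlapped, with 309 to 414 in homozygous seedlings and 316 to 381 in siblings for RPL24A, 317 to 353 and 306 to 338 for RPL9B, and 388 to 457 and 357 to 446 for RPL5A. Each of these was called with TMM (adjusted p = 0.000479, 0.000144 and 0.000203 in edgeR).

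Shares within families gave a measure that does not depend on the scale. Of 20 leading copies, 4 had a higher and 7 a lower share in homozygous seedlings than in siblings at p = 0.0286 (exact permutation test, 2-sided, unadjusted, and the smallest p that 4 against 4 samples allow). The largest shift was in L10, where RPL10A held 67.5%, 66.1%, 64.4% and 68.0% in homozygous seedlings and 77.7%, 75.2%, 74.9% and 76.4% in siblings, without overlap (66.5 ± 1.61% against 76.1 ± 1.28%). RPL10A fell by 0.43 with TMM (SE 0.111, adjusted p = 0.00371 in edgeR) and had 0.32 on the TPM scale. RPL10C, by contrast, had 0.27 with TMM (adjusted p = 0.0635), with 232 to 319 TPM in homozygous seedlings and 117 to 154 TPM in siblings. The share of RPL18C in L18 was 54.7 ± 1.70% against 49.5 ± 0.802%, and that of RPL10aB, the PIGGYBACK1 gene of the L1 stalk, in L10a 45.9 ± 1.29% against 50.5 ± 1.28% (both n = 4).

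Against Col-0 leaves, homozygous seedlings had 14 genes called lower (28.2% of all genes were) and 1 higher (33.8% of all genes were). The gene called higher was RPL10C at 0.50 (adjusted p = 0.00255 in edgeR), and the median was -0.20. On the TPM scale 47 members were called higher. With log2(TPM + 1), 12080 of 17561 genes were called higher and 2087 lower. Without replicate 2 of Col-0 leaf, 24 members were called lower and 1 higher, where 5698 of 20828 genes were lower and 6618 higher. Without replicate 3 of Col-0 leaf, 22 members were called lower and 1 higher, where 5566 of 20823 genes were lower and 6682 higher. In heterozygous plants, also sampled as leaves, no member was called against siblings: edgeR called 0 of 52 (0.0528% of all genes were called), 0 had an unadjusted p under 0.05 and DESeq2 called 0. The median was -0.17 and 0 of 52 values were above 0, and on the TPM scale the median was -0.08 with 9 values above 0. It was -0.26 without replicate 2 and -0.10 without replicate 3 of the heterozygous plants, again with 0 calls. Siblings against Col-0 leaves gave 0 calls in edgeR and in DESeq2 (0.0144% of all genes were called) and 2 genes with an unadjusted p under 0.05, with a median of 0.20 and all 52 values above 0. Single Col-0 leaf samples moved these values: without replicate 4 the median was 0.32 and 41 genes had an unadjusted p under 0.05, and without replicate 2 or 3 the median was 0.11 or 0.13 and 0 genes did.

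Col-0 whole seedlings (t1 and t2, 7 samples) were set against Col-0 leaves (4 samples). In this comparison organ, growth on plates, time of harvest and experiment cannot be told apart. The leaves came from a single time point, whose time of day the paper does not give. With TMM-scaled counts 16 of 52 genes were called higher in seedlings and 2 lower, where 33.1% of all genes were called higher and 31% lower, with a median of 0.13 against 0.05 over all genes. On the TPM scale, which shifted all genes by 0.49, all 52 were called higher. With log2(TPM + 1), 12719 of 18175 genes were called higher and 1896 lower. Relative to the median gene, the members stood at 0.08 with TMM and 0.26 with TPM. The call count was 8 (4 higher and 4 lower) with t1 seedlings alone, where 7128 of 21879 genes were called higher and 6437 lower. It was 25 (23 and 2) with t2 seedlings alone, where 6765 of 21879 genes were called higher and 5958 lower. Without replicate 2 of Col-0 leaf it was 10 (7 and 3), where 6887 of 21875 genes were called higher and 6498 lower. Without replicate 3 of Col-0 leaf it was also 10 (7 and 3), where 6715 of 21879 genes were called higher and 6375 lower. All 14 root genes and all 9 dividing cell genes were higher in seedlings and all 9 leaf photosynthesis genes lower, and their part in the result was not tested.

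RPL10C separated seedlings from leaves most. It had 457, 485, 416 and 702 TPM in seedlings at t1, 339, 402 and 346 TPM at t2, and 135, 106, 90.9 and 139 TPM in leaves, so that every seedling sample was above every leaf sample. On the log2 scale the difference was 1.24 (SE 0.138, adjusted p = 1.03e-08 in edgeR). RPL10A had 650 TPM in seedlings and 421 TPM in leaves as means, a log2 fold change of 0.00 with TMM (adjusted p = 0.983) and 0.66 on the TPM scale. RPL10A therefore held 58.4 ± 6.61% (n = 7) of L10 in seedlings and 76.7 ± 0.862% (n = 4) in leaves, the largest shift of any leading copy (exact permutation test, 2-sided, p = 0.00606, the smallest that 7 against 4 samples allow). The test treats t1 and t2 seedlings as alike, although this share differed between them. RPL10C held 44.1% in Col-0 t1, 33.6% in Col-0 t2, 31.3% in homozygous pAP146 seedlings, 22.002% in siblings and 21.5% in Col-0 leaves. Neighbours in this order overlapped between Col-0 t2 and homozygous seedlings and between siblings and Col-0 leaves.

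RPL10B, at 22.7 TPM in seedlings and 9.92 TPM in leaves as means, was 0.57 higher (SE 0.105, adjusted p = 3.17e-05 in edgeR). RPL3A, the leading copy of L3, had 451 TPM against 206 TPM (0.51, SE 0.0810, adjusted p = 4.06e-06), and RPL7D (AT3G13580), a minor copy of L7, had 134 TPM against 63.4 TPM (0.46, SE 0.0972, adjusted p = 0.000167). Leaf samples of RPL3A lay at 173 to 261 TPM and seedling samples at 408 to 508 TPM. For RPL7D the ranges were 47.5 to 74.7 and 116 to 147 TPM, so that neither gene overlapped between seedlings and leaves in TPM. On that scale all 52 genes tested, and 12719 of 18175 genes in all, were called higher in seedlings. How many other genes did not overlap was not counted.

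L9 was the family with calls in opposite directions. RPL9D was higher in seedlings by 0.42 (SE 0.143, adjusted p = 0.0117 in edgeR), a call that was lost without replicate 2 or 3 of Col-0 leaf and with t1 seedlings alone. RPL9C (AT1G33140) and RPL9B were lower by TMM, at -0.24 (SE 0.0833, adjusted p = 0.0141) and -0.23 (SE 0.0896, adjusted p = 0.0290), but higher on the TPM scale, at 0.41 and 0.43. RPL9D had 33.7 to 76.2 TPM in leaves and 96.8 to 119 TPM in seedlings. The call of RPL9C was lost without replicate 1 or 4 of Col-0 leaf, and that of RPL9B without replicate 2 or 4 of Col-0 t1, replicate 1 of Col-0 t2 or replicate 1 or 4 of Col-0 leaf, with RLE scaling, with DESeq2 and with t1 seedlings alone. The share of RPL9C within L9 was 49.7 ± 0.910% in seedlings and 52.2 ± 1.47% in leaves (exact permutation test, 2-sided, p = 0.00606), and RPL9B and RPL9C cannot be fully separated by their reads.

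Over the 20 families, the share of the leading copy differed between Col-0 seedlings and leaves at p under 0.05 in 13 (3 higher and 10 lower in seedlings), with the number between 9 and 14 when any 1 sample was left out. These p-values were unadjusted, and the test treats t1 and t2 seedlings as alike. Between Col-0 t1 and t2 the share of the leading copy did not overlap in 13 of the 20 families. RPL24B (AT3G53020), the SHORT VALVE1 gene, held 59.0 ± 1.83% of L24 in seedlings and 51.5 ± 0.719% in leaves, and RPL12B, a copy of the protein that lies beside the stalk, held 47.6 ± 1.33% of L12 in seedlings and 54.5 ± 2.84% in leaves (both p = 0.00606 by the exact permutation test). RPP0B held 91.3 ± 0.475% of P0 in seedlings and 93.5 ± 0.494% in leaves (exact permutation test, p = 0.00606).

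Homozygous pAP146 plants, compared with Col-0 seedlings instead of leaves, had 39 of 52 genes called lower and 0 higher (27.8% of all genes were called lower and 31.9% higher), with a median of -0.35 against 0.03 over all genes. Here both groups were whole seedlings, the Col-0 value was the mean of t1 and t2, and the scale moved all genes by only 0.03. The groups came from different experiments, so that genotype, time of harvest and experiment cannot be told apart. On the TPM scale 29 members were called lower. With log2(TPM + 1), 4676 of 18175 genes were called lower and 6232 higher. The summed level of 9 dividing cell genes was 108.24 to 157.94 TPM in homozygous plants, above 72.49 to 106.25 in Col-0 t1 and 67.18 to 93.27 in Col-0 t2, with 4 of the 9 called higher and 0 lower. Of 14 root genes 2 were called higher and 5 lower, and their sum, 14.06 to 173.21 TPM, overlapped with both Col-0 groups. Of 9 leaf photosynthesis genes 4 were called higher and 3 lower. The part of these genes in the result was not tested. RPL13aC was again the lowest at -0.85 (adjusted p = 7.72e-07 in edgeR), followed by RPL10C at -0.73 (adjusted p = 3.55e-05). RPP0B (0.07) had the only value above 0.

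How far the copies of a family parted can be put as the range of their log2 fold changes. The median range over families was 0.05 in pAP141 t1 against Col-0 t1, 0.16 in pAP142 t1 against Col-0 t1, 0.16 in Col-0 t2 against t1, 0.26 in homozygous pAP146 against siblings and 0.24 in Col-0 seedlings against leaves. In other comparisons without a called member it was 0.14 (heterozygous pAP146 against siblings), 0.13 (pAP141 t2 against Col-0 t2) and 0.08 (siblings against Col-0 leaves). Ranges of 0.16 are thus close to some seen where no member was called. The widest families were P0 in pAP142 t1 (1.26, between RPP0A and RPP0C), L13a in homozygous pAP146 against siblings (0.88, between RPL13aD and RPL13aC) and L10 in seedlings against leaves (1.23, between RPL10C and RPL10A).

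**Figure D5:**
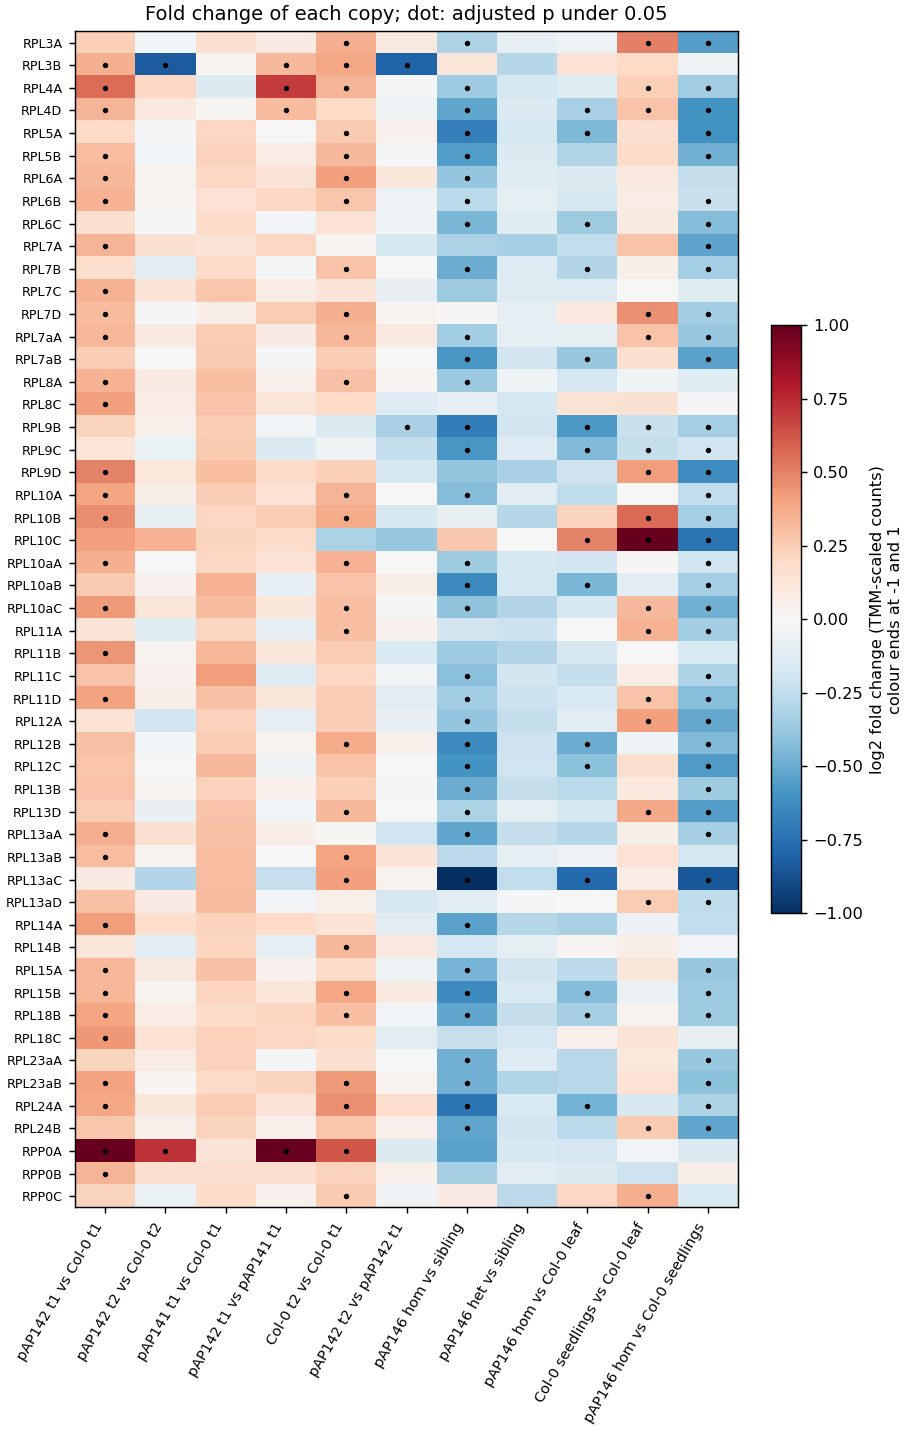
Log2 fold change (TMM-scaled counts) of each of the 52 tested copies (rows, by family) in 11 comparisons (columns), red for higher and blue for lower in the group named first, with a dot where the adjusted p was under 0.05 and colours ending at -1 and 1. RPP0A and RPL10C stand out from their families, and the columns of homozygous pAP146 against siblings and against Col-0 leaves turn to mostly higher values on the TPM scale.

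Values were also set apart by whether a gene holds site II in the 250 bases before the start. In pAP142 t1 against Col-0 t1 the median was 0.33 in 39 genes with and 0.33 in 13 genes without, with 22 and 8 called higher. In Col-0 t2 against t1 the medians were 0.28 and 0.29, with 22 and 5 called higher, and in homozygous pAP146 against siblings they were -0.37 and -0.46 with TMM, with 25 and 10 called lower. In homozygous pAP146 against Col-0 seedlings 26 of 39 genes with site II and 13 of 13 without were called lower, with medians of -0.34 and -0.41. No test of the motif was made, and a gene without a match may hold other forms of these elements or have them elsewhere.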

How the data were processed

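The deposited tables hold, for each of 34 samples and 27538 genes, TPM and an estimated count that the authors obtained with Salmon 1.6.0 from stranded mRNA libraries, along with the length and effective length. HISAT2 2.2.1 and DESeq2 1.44.0 are also named in the submitters' processing notes. Per the study's methods, quantification was against the primary Araport11 transcripts. Sequences were taken here from TAIR10.1 in RefSeq, in which 27352 of 27355 coding lengths equalled the deposited lengths. Estimated counts were rounded, filtered with filterByExpr, scaled by TMM and tested with edgeR 4.0.16 (glmQLFit and glmQLFTest, R 4.3.3) over all genes, with Benjamini-Hochberg adjustment at 0.05. The time-of-day fit had 21356 genes, the pAP146 fit 20833 and the joint fit of both experiments 21879. Shares are a copy's percent of its family's TPM, compared with exact permutation tests in SciPy 1.17.1. Alternatives were RLE scaling, no filter, effective length offsets, DESeq2 1.42.0, limma 3.58.1 (over genes averaging 1 TPM or more) on log2(TPM + 1) and log2(TPM + 0.1), the compared groups alone, a replicate block, single time points, counts in place of TPM for shares, and leaving out each sample. Fold changes with limma are on the log2(TPM + pseudocount) scale, which understates changes of low genes. Values are given for up to 4 genes in each direction with the largest called change and at least 5 TPM in the higher group in the comparisons pAP142 t1 and t2 against Col-0, Col-0 t2 against t1, homozygous pAP146 against siblings and Col-0 seedlings against leaves, for the leading and least expressed copies of a family called in opposite directions, and for the leading copy whose share differed most. Other named copies were picked after their values were seen. The fits were tested on simulated data. The 54 genes, the marker lists and the tests were chosen with earlier results of these data known.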

Additional observations from a re-analysis of the deposited data

Results flagged for a closer look

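In 90 groups of 4 samples checked for a sample far from the rest, 4 values passed Dixon's criterion on the gap to the nearest sample. Chance alone passes about 1 in 20 independent groups, but these checks cover related genes in the same samples. The count of 4 in 90 therefore cannot show whether these values arose by chance. Smaller groups were not checked. RPP0A was 18.9 TPM in replicate 4 of homozygous pAP146, against 9.82 to 11.3 in the other 3. RPL13aC was 73.1 TPM in replicate 2 of the siblings, against 60.7 to 61.9. RPL5A was 624 TPM in replicate 2 of Col-0 t1, against 552 to 561. RPL10A was 518 TPM in replicate 1 of homozygous pAP146, against 608 to 623. The effect of the pAP142 line on RPL3B differed between evening and morning by 1.19 on the log2 scale, by the interaction test.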

How the results depend on the processing

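On the TPM scale, homozygous pAP146 turned from lower to higher, with 26 genes called against siblings and 47 against Col-0 leaves under either pseudocount. Over all 17561 genes, 12069 and 12080 were called higher in these comparisons with a pseudocount of 1. With pseudocounts of 1 and 0.1, RPL24A (0.0333 and 0.0334), RPL9B (0.0649 and 0.0651), RPL5A (0.0608 and 0.0609) and RPL10A (0.32) turned against siblings, as did RPL9C (0.41) and RPL9B (0.43) in Col-0 seedlings against leaves. TPM also gave 27 calls for pAP142 t1 against pAP141 t1, 10 for Col-0 t2 against t1, 20 for pAP142 t2 against t1 and 52 for seedlings against leaves, and it turned the median for pAP141 t2 to -0.22 with 0 calls. DESeq2 called 19 for pAP141 t1 and 2 for the interaction, the compared groups alone gave 1 for pAP142 t2 against t1, and t1 alone gave 8 for seedlings against leaves. RPL10A in seedlings against leaves, near 0, was -0.18 with t1 alone and between -0.0703 and 0.0824 with 1 sample left out. With 1 sample left out, calls ranged from 5 to 25 for pAP142 t1, 0 to 13 for pAP141 t1, 0 to 1 for pAP141 t2, 2 to 7 for pAP142 t1 against pAP141 t1, 12 to 29 for Col-0 t2 against t1, 1 to 2 for pAP142 t2 against t1 and for the interaction, 25 to 35 for homozygous pAP146 against siblings, 10 to 25 against Col-0 leaves and 32 to 40 against Col-0 seedlings, and 10 to 24 for seedlings against leaves. The causes were not tested. Same-numbered samples did not deviate together on average (mean correlation 0.02 over 41 pairs and -0.03 over 21), with 12 and 5 pairs above 0.1. No pairing by replicate number was seen, which does not exclude it. With a replicate block, calls were 21 for pAP142 t1, 18 for Col-0 t2 against t1 and 37 for homozygous pAP146 against siblings. Leaving out a sample of 3 against 4 or 4 against 4 left share tests unable to pass 0.05.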
